A study of Mus musculus with 6 samples.

Results

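Simple epithelial keratins and membrane-spanning mucins were followed in RNA from the colon of Smad4 knockout and control mice. The 10 genes, chosen by name, were Krt7, Krt8, Krt18, Krt19, Krt20, Krt23, Muc1, Muc4, Muc13 and Muc20. All 10 were found among the 22354 genes of the deposited table, each as 1 row, and all 10 passed the filter on low counts, as did 14180 genes in all.

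The study compared 3 mice whose genotype is labelled Smad4Lrig1 (titled KO, called knockout here) with 3 labelled SMAD4+ (titled WT, called control). All 6 were of the strain C57BL/6J and were taken 1 month after tamoxifen, so that both groups had received the drug. The genotype name joins Smad4, the shared transducer of TGF-beta and BMP signals, with Lrig1, a gene of epithelial stem and progenitor cells. The alleles, the ages of the mice and the share of cells that lost Smad4 are not given in the labels. EDTA was used to release the crypts, scraping then separated the layer under them from the muscle, and each library came from 1 mouse.

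Keratins are the intermediate filament proteins of epithelial cells. A filament is built from pairs that join an acidic type I chain with a basic type II chain, and in the intestine Krt8 (type II) pairs with Krt18, Krt19 and Krt20 (type I). Krt19 and Krt18 are known from the crypt upwards, whereas Krt20 marks differentiated cells near the gut surface. Membrane mucins are heavily glycosylated proteins anchored in the apical membrane, where they form the glycocalyx and carry signals through their cytoplasmic tails, and Muc13 is a main member of this group in the colon.

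Library totals lay between 18918880 and 25867997 counts, so that 3 counts corresponded to 0.116 to 0.159 counts-per-million units (CPM). The levels below are CPM scaled by the trimmed mean of M values (TMM). The material is labelled as tissue stripped of crypts, yet 10 epithelial markers (Epcam, Cdh1, Vil1 and others) summed to 13628 to 16039 CPM per library, while 7 fibroblast genes summed to 3.67 to 14.3 CPM. The fibroblast genes Lum and Pdgfra had at most 2 and 13 counts in any library. Of the epithelial markers 9 had positive and 1 a negative fold change, none past the threshold, and their sums overlapped between the groups (13628 to 15785 CPM in controls, 14643 to 16039 CPM in knockouts). Smad4 itself averaged 131.8 ± 20.8 in controls and 84.4 ± 22.6 CPM in knockouts (SD, n = 3 each), or 64.0% of the control mean. All knockout libraries lay below all controls, as they did for 6.52% of the 14180 genes that passed the filter. The quasi-likelihood test of edgeR gave an unadjusted p of 0.0146 and an adjusted p of 0.338. DESeq2 gave an adjusted p of 0.0799.

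Upstream sequence is shown for 4 of the genes: the partners Krt8 and Krt18, Krt20 as the keratin with the widest spread between libraries, and Muc1 as the gene with the largest difference between the groups. Each window runs from 250 bases before to 50 bases after a transcript start annotated by RefSeq on GRCm38.p6. Capitals mark 2 motifs searched on both strands. One is CAGAC, the core of a SMAD site, which reads as GTCTG when it lies on the opposite strand. The other is the TATA box motif TATAAA, which there reads as TTTATA. Matches of the motifs were allowed to overlap.
Krt8, chr15:102004293-102004592, minus strand: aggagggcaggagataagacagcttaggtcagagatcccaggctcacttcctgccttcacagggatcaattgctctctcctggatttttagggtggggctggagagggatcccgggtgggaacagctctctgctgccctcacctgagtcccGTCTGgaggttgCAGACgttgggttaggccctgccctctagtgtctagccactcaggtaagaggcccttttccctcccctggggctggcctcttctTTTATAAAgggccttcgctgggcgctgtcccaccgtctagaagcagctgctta
Krt18, chr15:102027966-102028265, plus strand: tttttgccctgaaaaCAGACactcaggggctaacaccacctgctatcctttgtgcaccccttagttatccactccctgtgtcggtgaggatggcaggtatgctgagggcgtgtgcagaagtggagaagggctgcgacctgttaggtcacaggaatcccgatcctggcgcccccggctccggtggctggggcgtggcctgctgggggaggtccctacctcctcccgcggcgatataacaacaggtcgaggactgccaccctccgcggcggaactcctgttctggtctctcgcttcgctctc
Krt20, chr11:99438104-99438403, minus strand: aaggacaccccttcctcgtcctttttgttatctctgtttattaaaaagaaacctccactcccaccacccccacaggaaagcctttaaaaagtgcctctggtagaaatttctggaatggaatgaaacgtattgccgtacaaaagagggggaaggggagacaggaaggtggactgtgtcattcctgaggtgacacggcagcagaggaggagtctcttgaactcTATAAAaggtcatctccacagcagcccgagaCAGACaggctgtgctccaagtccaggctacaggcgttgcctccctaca
Muc1, chr3:89228806-89229105, plus strand: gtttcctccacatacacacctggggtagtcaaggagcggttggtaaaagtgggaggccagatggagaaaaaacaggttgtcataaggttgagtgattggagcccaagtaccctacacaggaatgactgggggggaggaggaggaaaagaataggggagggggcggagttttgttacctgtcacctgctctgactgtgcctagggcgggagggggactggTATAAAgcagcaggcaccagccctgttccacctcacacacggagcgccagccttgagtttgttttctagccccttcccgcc

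RefSeq windows were found for 9 of the 10 genes, all but Krt19, and they number 10 because Muc13 has a pair. CAGAC or its complement lay in 8 of the 10 windows, against 49.6% of 32851 mouse promoter windows, and it was not among the letters of the Muc1 window. TATAAA or its complement lay in 4 of the 10 (Krt8, Krt20, Muc1 and Muc4), against 13.6% of all windows. It began 36 bases before the annotated start in Muc4, 31 in Muc1, 29 in Krt20 and 1 in Krt8. The palindrome GTCTAGAC, the full SMAD binding element, lay in 0 of the 10 windows and in 0.213% of all. These matches are letters in a window, and binding was not measured.

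The 10 genes spanned a wide range of levels, and they are ordered here per kilobase (kb) of annotated exon. Ranks over all genes, sums and shares given in CPM or counts are not scaled by length. Krt19 had the highest mean over the 6 libraries, at 2382 CPM per kb, followed by Krt8 at 2093, Muc13 at 1633, Krt20 at 979, Krt18 at 352, Muc4 at 28.4, Krt7 at 25.0, Muc1 at 23.7, Krt23 at 3.88 and Muc20 at 0.566 CPM per kb. Krt19 lay above Krt8 in 5 of the 6 libraries, Muc4 above Krt7 in 5 and Krt7 above Muc1 in 3, so these neighbours did not separate beyond the spread between libraries. Krt8 lay above Muc13 in all 6, although their ranges overlapped, and the ranges of the other neighbours did not overlap. The annotated exons of Krt7 cover 7049 bases, against 1437 to 1958 in the other 5 keratins, and a longer annotation lowers a level per kb. Muc13, Krt19 and Krt8 ranked 7th, 9th and 10th of all genes by CPM. The 6 keratins held 1.00% to 1.22% of the counts of a library.

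**Figure D1:**
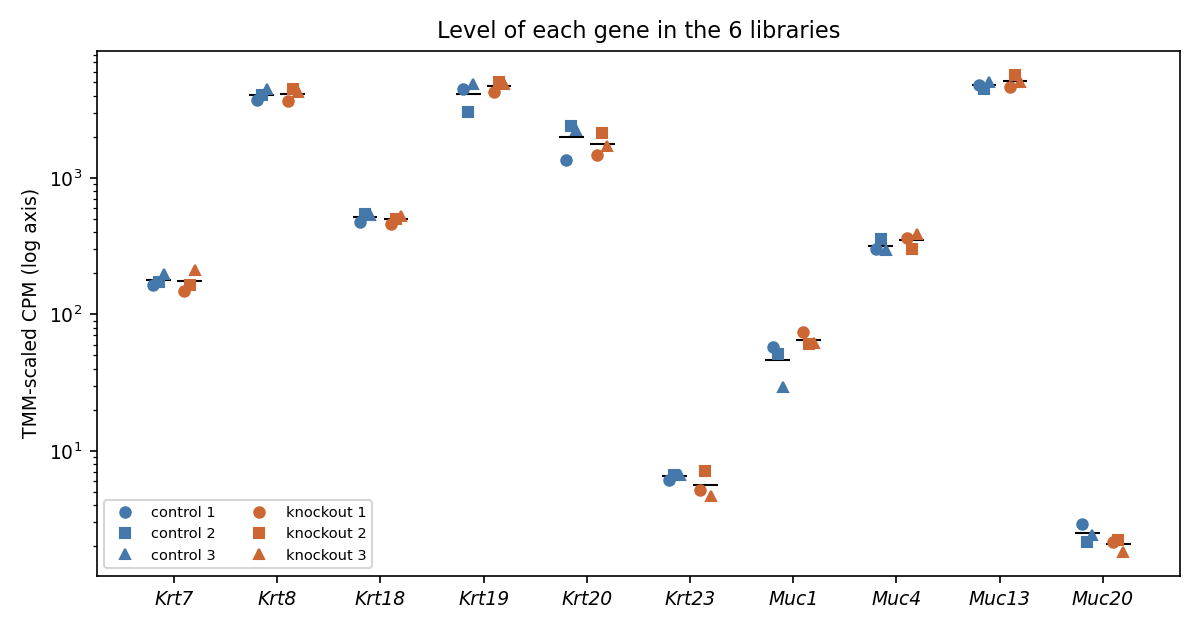
TMM-scaled CPM of each gene on a log axis. Each point is 1 library, with blue for control, orange for knockout, the point shape for the replicate number and a black line for the group mean; the groups overlap for 9 of the genes, and for Muc1 the 3 knockout libraries lie above the 3 controls.

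Some of these genes share sequence with other genes. Their levels, and ratios of those levels, may include reads of other genes or lack reads of their own. Of the 51-base windows of the Krt8 transcripts, as long as the reads, 29.5% also occur in annotated transcripts of other genes, led by the pseudogene Krt8-ps. The share was 0.577% for Krt18 and 0% for Krt19, Krt20, Krt23 and Muc1. Muc4 and Muc20 lie on opposite strands of chromosome 16 and overlap by 4973 bases, and 12.04% of the Muc20 windows occur in Muc4. Muc20 was counted at 0.466% to 0.963% of the Muc4 count. As no source used here gives the strand setting of the counting, Muc20 reads in the shared windows cannot be told apart from Muc4 reads. How many of the Muc20 reads lie there cannot be seen from counts per gene. Muc13 shares 5.16% of its windows with Gm15657, which overlaps it on the other strand and had 18 to 78 counts. Reads in those windows cannot be told apart either.

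Knockout was compared with control to ask whether these genes of epithelial architecture and surface follow the Smad4 genotype. None of the 10 passed an adjusted p of 0.05 in the quasi-likelihood test of edgeR, where 0 of 14180 genes passed (0%). At an unadjusted p under 0.05 the test held 1211 genes (8.54%; 5.19% were higher in knockout), and again none of the 10. DESeq2 called 327 genes (2.31%), the exact test of edgeR 384 (2.71%) and limma-voom 0 (0%), with none of the 10 in any of them. At an unadjusted p under 0.05, DESeq2 held 1 of the 10, Muc1, higher in knockout, as were 5.06% of the genes it tested. Muc1 was also under 0.05 unadjusted in the exact test (p = 0.0365), limma-voom (p = 0.0457) and the authors' deposited comparison (p = 0.044). The authors' deposited table has adjusted p-values under 0.05 for 415 genes (2.86% of those with a value), and its smallest value among the 10 is 0.4997, for Muc1. Fold changes were positive for 5 of the 10 and negative for 5, and their median log2 fold change was 0.00, beside -0.01 over all tested genes.

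**Figure D2:**
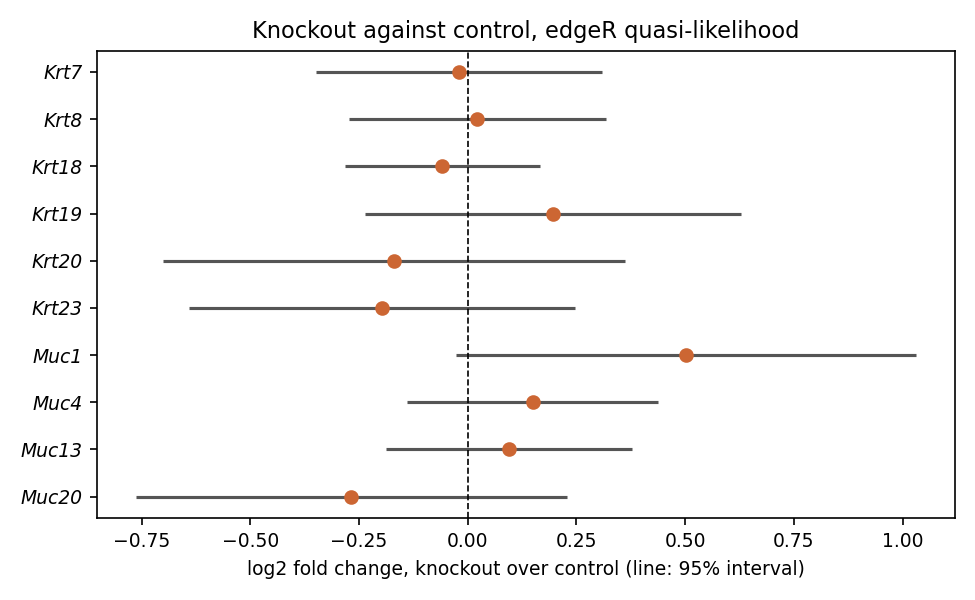
Log2 fold change of knockout over control for each gene (point) with its 95% interval (line) from the quasi-likelihood fit. All 10 intervals include 0; that of Krt18 is the narrowest and that of Krt20 and Muc1 the widest.

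Krt8 (ENSMUSG00000049382, chromosome 15, 101996698 to 102004482, minus strand, mm10) is the main type II keratin of simple epithelia. It stood at 3718, 4037 and 4450 CPM in controls and at 3650, 4500 and 4237 CPM in knockouts. The ranges of the groups nearly coincided. The log2 fold change was 0.02 ± 0.13 (SE), and its 95% interval of -0.27 to 0.32 leaves room for a knockout level between 0.827 and 1.25 times that of control (edgeR quasi-likelihood, adjusted p = 0.989).

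Krt18 (ENSMUSG00000023043), its type I partner, lies 23.7 kb from Krt8 on the plus strand (chromosome 15, 102028180 to 102032027). Its level was 475, 540 and 532 CPM in the controls and 459, 500 and 527 CPM in knockouts. It was the steadiest of the 10 genes, with its highest library at 1.18 times its lowest. Its log2 fold change was -0.06 ± 0.10, with a 95% interval of -0.28 to 0.17 (adjusted p = 0.945). Per kb, Krt8 was 5.48 to 6.60 times as abundant as Krt18 across the libraries, with 5.79 ± 0.327 in control and 6.11 ± 0.424 in knockout (SD, n = 3 each).

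Krt7 (ENSMUSG00000023039, chromosome 15, 101411043 to 101430313), a type II keratin better known from ducts and glands, was far below Krt8. It stood at 164, 172 and 197 CPM in controls and at 148, 165 and 212 CPM in knockouts. The knockout range enclosed that of control. This gave a log2 fold change of -0.02 ± 0.14 (95% interval -0.35 to 0.31, adjusted p = 0.990).

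Krt19 (ENSMUSG00000020911, chromosome 11, 100140810 to 100148665, minus strand) is the smallest type I keratin of simple epithelia. It stood at 4445, 3014 and 4901 CPM in controls and at 4256, 5030 and 4867 CPM in knockouts. Control replicate 2 was the lowest of the 6 libraries, at 70.8% of the next lowest. The log2 fold change of 0.20 ± 0.19 had a 95% interval of -0.24 to 0.63 (adjusted p = 0.888), and it fell to 0.01 without that library (adjusted p = 0.997).

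Krt20 (ENSMUSG00000035775, chromosome 11, 99428403 to 99438150) is the keratin of differentiated surface cells. Its level was 1359, 2404 and 2226 CPM in the controls and 1474, 2139 and 1715 CPM in knockouts. Control replicate 1 was lowest and control replicate 2 highest, so the spread within control was wider than the difference between groups. Between the groups this gave a log2 fold change of -0.17 ± 0.23 (95% interval -0.70 to 0.36, adjusted p = 0.930).

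Markers of surface colonocytes varied beside Krt20. The 10 listed (Car1, Car4, Aqp8 and others) summed to 3329, 8339 and 9253 CPM in controls and to 4996, 5462 and 5222 CPM in knockouts, and the sum was lowest in control replicate 1, where Krt20 was also lowest. Car1 carried much of it, at 1170, 5252 and 5418 CPM in controls and 2123, 2069 and 2607 CPM in knockouts. The genes did not all follow the sum: Slc37a2 was highest in control replicate 1, at 194 CPM, and Aqp8 was lowest in control replicate 2, at 129 CPM. Of the 10, 6 had positive and 4 negative fold changes, none past the threshold. Crypt progenitor genes (8 genes, Lgr5 and Mki67 among them) had their highest sum in control replicate 1. It was 985 CPM there, against 560 to 717 CPM in the others. Mki67 and Top2a made up most of it, at 482 and 339 CPM. Smoc2 was instead highest in knockout replicate 3, at 46.9 CPM against 43.8 CPM in control replicate 1. What part these cells had in the Krt20 level was not tested. In bulk tissue, fewer cells of a type and less RNA per cell cannot be told apart.

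Krt23 (ENSMUSG00000006777), a type I keratin that lies 39.8 kb from Krt20, was low. Its level was 6.15, 6.66 and 6.66 CPM in the controls and 5.15, 7.17 and 4.66 CPM in knockouts, from 105 to 167 counts. The control libraries were close together, and knockout libraries lay on both sides of them. The log2 fold change was -0.20 ± 0.19 (95% interval -0.64 to 0.25, adjusted p = 0.889).

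Muc1 (ENSMUSG00000042784, chromosome 3, 89229057 to 89233381, plus strand), a membrane mucin whose cytoplasmic tail binds signalling proteins, showed the largest difference of the 10. It stood at 57.4, 51.6 and 29.3 CPM in controls and at 73.8, 60.1 and 61.6 CPM in knockouts. All 3 knockout libraries lay above all 3 controls, as they did for 6.76% of all tested genes, and Muc1 was the single gene of the 10 with separate groups. None of the 10 lay wholly below control, as 6.52% of tested genes did, so the 1 in 10 stands beside 13.3% in either direction. The gap between the lowest knockout and the highest control library was small beside the distance of control replicate 3 from the others. The mean was 46.1 ± 14.9 CPM in controls and 65.2 ± 7.51 CPM in knockouts (SD, n = 3 each), a ratio of 1.41, with a log2 fold change of 0.50 ± 0.23 and a 95% interval of -0.03 to 1.03. It did not pass the quasi-likelihood test (unadjusted p = 0.0597, adjusted p = 0.617) or DESeq2 (adjusted p = 0.476).

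The Muc1 difference depended on control replicate 3. Without that library the log2 fold change was 0.26 (adjusted p = 0.627). Without control replicate 1 it was 0.70 (adjusted p = 0.221), and DESeq2 then called Muc1 (adjusted p = 0.0485). The higher knockout level stood beside higher levels of some other cells' markers, none called by the quasi-likelihood test. The 6 B cell genes summed to 21.5 to 32.6 CPM in the controls and 61.0 to 134 CPM in knockouts. DESeq2 called 6 of the 6 as higher in knockout, beside 2.31% of all genes called in either direction. The 5 genes of M cells over lymphoid follicles summed to 30.1 to 45.02 CPM in controls and 60.3 to 81.6 CPM in knockouts. DESeq2 called 2 of the 5, Gp2 and Spib, and the groups overlapped for Tnfaip2, Sox8 and Ccl9. Spib is also known from B cells. The 7 fibroblast genes summed to 3.67 to 5.28 CPM in controls and 8.93 to 14.3 CPM in knockouts, and DESeq2 called 1 of the 6 tested, Dcn. The 5 endothelial genes summed to 3.39 to 4.08 CPM in controls and 4.75 to 7.41 CPM in knockouts, and DESeq2 called none. Sums of 6 mesothelial genes overlapped, at 3.67 to 4.98 CPM in controls and 3.23 to 7.81 CPM in knockouts. Of these, Msln had 4 to 10 counts in controls and 14 to 48 in knockouts. Smooth muscle genes did not rise, and 6 of them summed to 14.7 to 57.2 CPM in controls and 14.2 to 15.4 CPM in knockouts. The part of these cells in the Muc1 level was not tested.

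Muc13 (ENSMUSG00000022824, chromosome 16, 33794037 to 33819934), the most abundant of the 4 membrane mucins, stood at 4823, 4493 and 5080 CPM in controls and at 4666, 5707 and 5002 CPM in knockouts. Knockout replicate 2 was the highest library and the groups overlapped. For Muc13 this came to a log2 fold change of 0.09 ± 0.12 (95% interval -0.19 to 0.38, adjusted p = 0.922).

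Muc4 (ENSMUSG00000079620, chromosome 16, 32735886 to 32782391), a membrane mucin known as a ligand of the receptor ErbB2, stood at 300.0, 354 and 298 CPM in controls and at 365, 299 and 391 CPM in knockouts. The groups overlapped, with knockout replicates 1 and 3 above all controls. The log2 fold change was 0.15 ± 0.12 (95% interval -0.14 to 0.44, adjusted p = 0.866). Muc20 (ENSMUSG00000035638, chromosome 16, 32777419 to 32797435), known as a partner of the Met receptor, had 40 to 63 counts per library, at 2.89, 2.15 and 2.43 CPM in the controls and 2.16, 2.23 and 1.82 CPM in knockouts. Its log2 fold change was -0.27 ± 0.21 (95% interval -0.76 to 0.23, adjusted p = 0.854).

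Summed over the genes, the 6 keratins averaged 10884 ± 1236 in controls and 11298 ± 1197 CPM in knockouts, and the 4 membrane mucins 5164 ± 255 and 5544 ± 487 CPM (SD, n = 3 each). Most of the mucin sum was Muc13, which averaged 4798.5 CPM in controls and 5124.7 CPM in knockouts. The keratin difference was smaller than the SD of either group, and the mucin difference was larger than the SD of the controls and smaller than that of the knockouts. Between the lowest and highest library the keratin sum went from 9992 to 12342 CPM, while Krt20 alone differed 1.77-fold and Krt19 1.67-fold.

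The summed type I chains kept a nearly fixed ratio to the type II chains in 5 of the 6 libraries, a pattern noticed after the values were seen. The ratio of Krt18, Krt19, Krt20 and Krt23 together to Krt7 and Krt8 together, each per kb, was 1.79, 1.56 and 1.81 in control and 1.79, 1.80 and 1.77 in knockout. Control replicate 2 stood apart, and the other 5 lay between 1.77 and 1.81. Krt20 over Krt8 alone ranged from 0.372 to 0.605 and Krt19 over Krt8 from 0.788 to 1.26, so each of these alone varied more than the sum.

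Control replicate 2 also held a keratin that the other libraries all but lacked. Krt15 (ENSMUSG00000054146, chromosome 11, 100131758 to 100135928, minus strand), a type I keratin of basal cells in stratified epithelia, had 14890 counts there and 13, 16, 11, 38 and 11 counts in the other control libraries and the 3 knockout libraries. This is 800.1 CPM, or 443 times the highest of the others. With Krt15 added to the type I sum, the ratio in that library was 1.78, inside the 1.77 to 1.81 of the other 5. Krt15 and Krt19 together came to 3814 CPM there, of which Krt15 was 21.0%, against 4257 to 5032 CPM and at most 0.0359% in the others.

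**Figure D3:**
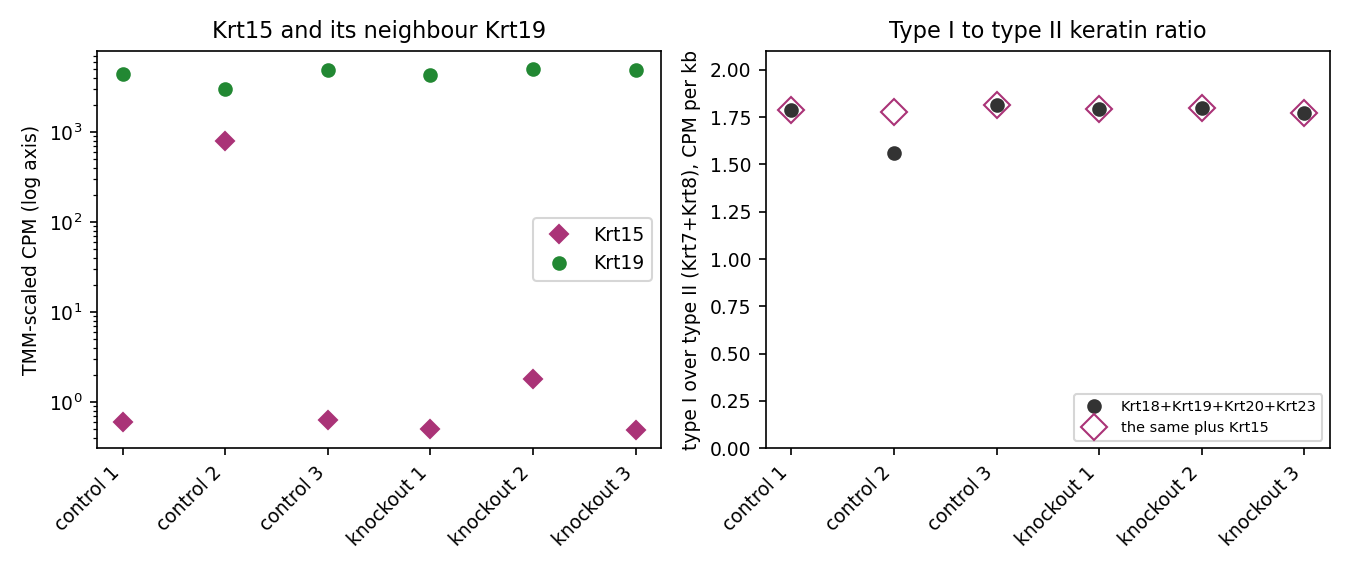
Left, TMM-scaled CPM of Krt15 (diamonds) and Krt19 (circles) in each library on a log axis. Right, type I over type II keratins in CPM per kb without (circles) and with Krt15 (open diamonds); control 2 has 800.1 CPM of Krt15, and its ratio moves from 1.56 to 1.78 when Krt15 is added.

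Krt15 and Krt19 are neighbours on the same strand, 4.9 kb apart, so their sequences are compared here. No 51-base window of the Krt19 transcripts occurs in another gene, and the 0.524% of Krt15 windows that do are shared with Krt25. The most alike 51-base stretches of their coding sequences, compared without gaps, differ at 2 positions, shown in capitals (coding bases 588 to 638 of Krt15 and 540 to 590 of Krt19, GENCODE M21).
Krt15: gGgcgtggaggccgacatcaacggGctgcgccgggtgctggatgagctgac
Krt19: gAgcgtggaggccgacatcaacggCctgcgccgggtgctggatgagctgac

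Of the 1318 coding windows of Krt15, 22 (1.67%) came within 2 mismatches of Krt19. Where along the genes the reads lie cannot be seen from counts per gene. Other squamous genes of the anal canal had at most 22 counts in any library. In control replicate 2 Krt13 was at 1.07 CPM, the highest of the 6, against 0.160 to 1.01 CPM elsewhere, and Krt14 was at 0.215 CPM, the lowest, against 0.400 to 0.826 CPM. Dsg3, Krt4 and Trp63 had at most 2 counts. Whether squamous tissue had a part in the Krt15 level was not tested. Krt12, a type I keratin 6.1 kb from Krt20, had 35 counts in that library and at most 2 in the others. It overlaps A830036E02Rik, which lies on the other strand and had 27 counts there against 1 to 7 elsewhere, so these reads cannot be told apart. Krt12 and A830036E02Rik were chosen after their values were seen.

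As a comparison of groups, Krt15 rests on that library. Its log2 fold change was -8.17 ± 2.75 (edgeR quasi-likelihood, adjusted p = 0.377), limma-voom gave -2.78, and the exact test called it (adjusted p = 0.0415). Without control replicate 2 it was 0.58 (quasi-likelihood, adjusted p = 0.959). DESeq2 as run here gave no p-value for Krt15 with all libraries. The authors' deposited comparison lists a log2 fold change of -0.25 ± 0.18 for Krt15 (adjusted p = 0.843).

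Other keratins were low or absent outside that library. Of 27 further keratin genes in the table, 9 passed the filter, none passed the threshold, and 3 had positive and 6 negative fold changes. Their median log2 fold change was -0.18. After Krt15, the smallest p belonged to Krt83, which averaged 1.87 ± 0.195 in controls and 2.47 ± 0.820 CPM in knockouts. Krt78 averaged 1.52 ± 0.628 and 1.06 ± 0.453 CPM, and Krt36 2.96 ± 2.54 and 1.78 ± 0.963 CPM. Krt36 reached 126 counts in control replicate 1 and 15 to 53 in the others.

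Of 7 further mucin genes, 3 passed the filter, none passed the threshold, and all 3 were lower in the knockout mean. Muc2, the gel-forming mucin of goblet cells, averaged 4212 ± 615 in controls and 3510 ± 524 CPM in knockouts, with a log2 fold change of -0.26 ± 0.16 (adjusted p = 0.764, edgeR quasi-likelihood). Muc3, another membrane mucin, averaged 1753 ± 299.7 and 1560.3 ± 229.9 CPM, and the stomach mucin Muc6 0.540 ± 0.229 and 0.370 ± 0.233 CPM. The goblet cell list, Muc2 among its 8 genes, had 8 negative fold changes, none past the threshold. It summed to 11147 ± 774 in controls and 9417 ± 1430.2 CPM in knockouts. Whether the mucins and the other goblet genes share a source was not tested.

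The proteins that tie keratin filaments to desmosomes and to the cell cortex formed a list of 13 measured genes. None passed, 10 had positive and 3 negative fold changes, and the median was 0.09. Pkp1, a plakophilin of the desmosome, averaged 67.9 ± 10.7 in controls and 55.3 ± 2.14 CPM in knockouts, with all knockout libraries below all controls. Its log2 fold change was -0.30 ± 0.12 (adjusted p = 0.518). The desmosomal cadherin Dsc2 averaged 439 ± 65.6 and 524 ± 32.8 CPM, the cadherin Dsg2 653 ± 46.0 and 737 ± 66.2 CPM, and envoplakin (Evpl) 110.1 ± 8.74 and 96.1 ± 13.5 CPM.

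Among other intermediate filament genes, 6 of 10 passed the filter and none the threshold, with 1 positive and 5 negative fold changes and a median of -0.18. Vim, the vimentin of mesenchymal and immune cells, averaged 11.9 ± 0.990 in controls and 17.1 ± 4.54 CPM in knockouts. Its log2 fold change was 0.52 ± 0.20 (adjusted p = 0.513). Des, the desmin of muscle, had 239 counts in control replicate 1 and 5 to 20 in the others. The lamin gene Lmna averaged 468 ± 37.9 and 403 ± 50.1 CPM, and Lmnb2 87.3 ± 4.59 and 78.8 ± 5.94 CPM.

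Partners of the membrane mucins and the transcription factors of simple epithelium showed no call. Of 12 partner genes, 7 had positive and 5 negative fold changes, with a median of 0.02. Lgals3, a galectin that binds mucin glycans, averaged 1955 ± 187 in controls and 1525 ± 247 CPM in knockouts, with a log2 fold change of -0.36 ± 0.14 (adjusted p = 0.522). The sheddase gene Adam10 averaged 227 ± 17.3 and 259.8 ± 8.97 CPM, with all knockout libraries above all controls, and Adam17 62.3 ± 4.92 and 68.2 ± 1.31 CPM. The receptor gene Met averaged 103 ± 13.0 and 121 ± 7.97 CPM. Of 10 transcription factors, 3 had positive and 7 negative fold changes, with a median of -0.07 and a range of -0.16 to 0.15. Among those with the smallest p, Elf3, Grhl2 and Ehf had log2 fold changes of 0.15 ± 0.12, -0.10 ± 0.08 and -0.10 ± 0.10.

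**Figure D4:**
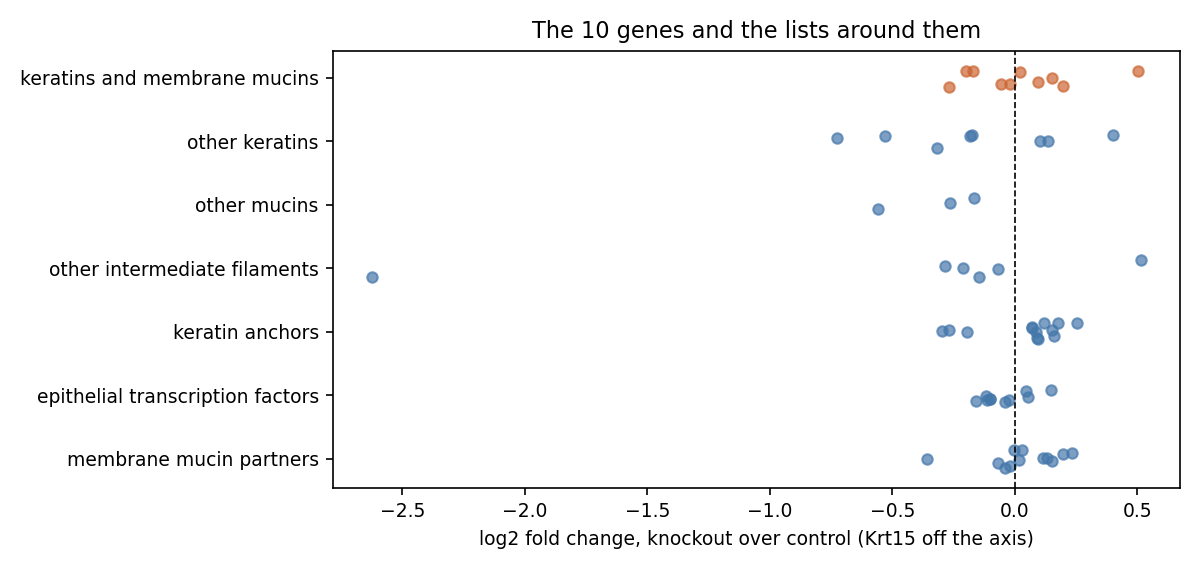
Log2 fold change of knockout over control for the 10 genes (orange) and for the tested members of 6 lists around them (blue), 1 point per gene. No point passed the threshold; Krt15 lies off the axis and Des, at -2.63, rests on control replicate 1.

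The genes most like each member in pattern were sought among 9246 genes of at least 10 CPM, by the root mean square (RMS) difference of log2 CPM centred over the 6 libraries. For Muc1 these were Slc4a7, Taf4b and Bcl2, at 0.17 to 0.19, where the Muc1 pattern itself has an RMS of 0.42. For Krt19 they were Cyp2d10, Dapp1 and Litaf, at 0.10 to 0.11 beside its own 0.25, and for Krt20 Ank3, Slc25a34 and Srr, at 0.10 to 0.11 beside 0.31. For Krt8 and Muc13 the nearest were 1110067D22Rik and Plce1, at 0.02 and 0.01 beside their own 0.12 and 0.11. No member was among the 3 nearest genes of another, though Krt23 and Muc20, below 10 CPM, could not appear there.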

How the data were processed

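Per the labels' protocols, RNA of 6 mice was read as 51-base single-end reads, mapped to mm10 with TopHat 2.1.0, and counted over genes with HTSeq 0.5.4p5 and samtools 1.3.1. The submitters' processing notes name Bowtie 0.12.2, mm8 and mm10. No source used here says whether strand entered the counting. The library columns are raw whole-number counts as deposited. The authors' deposited comparison adds a mean normalised signal, a log2 fold change, 2 score columns (standard error and statistic) and p-values, under DESeq2's column names, while the labels' protocols name edgeR 3.4.2.

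Counts were scaled by TMM, filtered with filterByExpr, and tested for knockout against control in R 4.3.3 with edgeR 4.0.16 (quasi-likelihood F test, no covariate, Benjamini-Hochberg adjustment over all 14180 genes, threshold 0.05). This test gave every adjusted p printed without a tool. It was also run on simulated counts with the same dispersion for every gene, which does not show its power in these data. An SE is the log2 fold change over the square root of F. Exon lengths, coordinates and transcripts are from GENCODE M21 (mm10), in which 21925 gene IDs matched, and promoters from RefSeq. Log2 CPM used a prior count of 2. Counts of same-group libraries differed beyond sampling noise, at 13.4 or more chi-square per degree of freedom. The members and lists were chosen with earlier results of these data known. Named were all members, up to 4 genes per list with the smallest p and the 3 nearest patterns. A gene that this rule takes is not reported here. Alternatives were other scalings, filters, DESeq2 1.42.0, the exact test, limma-voom 3.58.1, a replicate block, a threshold of 0.1 and the omission of each library. DESeq2 with each omission was added after seeing the data.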

Additional observations from a re-analysis of the deposited data

How the results depend on the processing

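The count of 0 of the 10 genes called held under every alternative with all 6 libraries and under every omission of a library in the quasi-likelihood test. With DESeq2 the omission of control replicate 1 gave 1 (Muc1), and the other omissions 0. Of 210 refitted values of the 10 genes, 198 kept direction and side of the threshold, and 11 changed sign. The reversals were of values near 0. Krt8 was at -0.036 and -0.045 without control replicate 1 and knockout replicate 2 (-0.037 and -0.039 with DESeq2), within -0.045 to 0.10 over the omissions in the quasi-likelihood test and up to 0.11 with DESeq2. Krt7 was at 0.058, 0.087 and 0.020 without control replicate 3, knockout replicate 1 and knockout replicate 2 (0.064, 0.092 and 0.025 with DESeq2), within -0.17 to 0.087 in the quasi-likelihood test and -0.18 to 0.092 with DESeq2. Krt18 was at 1.5e-04 without knockout replicate 1 with DESeq2. In the lists, Krt15 turned to 0.58 (0.59 with DESeq2) without control replicate 2 and otherwise reached -9.05 (-9.06 with DESeq2). Without control replicate 1, Krt36 and Des turned to 0.24 and 0.37 (0.22 and 0.32 with DESeq2), with lowest values of -1.18 and -3.20.

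Over all genes the call count was 0 with all libraries, 157 with no low-count filter, 327 with DESeq2, 384 with the exact test and 92 at a threshold of 0.1. Omitting libraries gave 0 to 266 with the quasi-likelihood test (17 without control replicate 1, 266 without knockout replicate 3) and 139 to 487 with DESeq2 (487, 219 and 222 without control replicates 1, 2 and 3, and 139, 220 and 370 without knockout replicates 1, 2 and 3). Over the 6 lists the exact test called 1 gene (Krt15), and DESeq2 with a library omitted 0 to 4: Krt15, Lgals3, Met and Cdx2 without control replicate 1, Krt15 and Des without control replicate 3, Lgals3 without knockout replicate 2 and Vim without knockout replicate 3. The causes were not tested. The log2 ratio of the summed levels, 0.05 for keratins and 0.10 for mucins, ranged from -0.01 to 0.15 and from 0.03 to 0.16.

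With the replicate number as a block, 0 members and 0 genes were called. Same-numbered libraries of the groups did not deviate together (correlations of -0.05, -0.14 and 0.14), and the main test did not pair them. With so few libraries a pairing is not excluded. The deposited library names run in alternation, control then knockout. With 3 libraries per group, an exact permutation test could not go below 0.1. The 95% intervals above rest on the quasi-likelihood model, and differences outside them are not excluded. Muc20 and Krt23 rested on 40 to 167 counts per library.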
